A study of Mus musculus with 91 samples.

Results

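Supporting cells of the XY gonad, the Sertoli cell precursors that enclose germ cells in the testis cords, were compared here between E12.5 and E13.5, a day of development that follows the onset of cord formation. Both groups carried the reporter transgene *Sox9-ECFP* (Tg(Sox9-ECFP)2Capl), came from a cross of CD-1 with C57BL/6J mice, and held 3 arrays each. All transcript clusters of the array that name 1 gene and lay at 6 or more on the log2 scale on 2 or more arrays of E12.5 or of E13.5 were included. This gave 15083 clusters for 13758 genes, of 16820 clusters for 15324 genes that passed in any of the 24 sorted groups of the series and 21789 that name 1 gene. Of the 15083 clusters, 198 passed at E12.5 alone and 289 at E13.5 alone.

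The study sorted fluorescent cells from gonads of XX and XY mouse embryos on 3 successive days, E11.5 to E13.5, and measured their RNA, after 1 round of amplification, on Affymetrix Mouse Gene 1.0 ST arrays. Gonads of one or more litters were pooled for an array, so the 3 arrays of a group are separate pools and p-values measure the spread between pools. XX supporting cells, sorted with *Sry-EGFP* (Tg(Sry-EGFP)92Ei) from the same cross, and XY interstitial cells, sorted with a different fluorescent reporter from CD-1 mice crossed to a mixed background, served for comparison. The label of the interstitial cells includes fetal Leydig cells, and a cell is placed in a group by the activity of its reporter and not by its position in the gonad. XY supporting cells of E11.5 were sorted with *Sry-EGFP*, so from E11.5 to E12.5 stage and reporter cannot be told apart, whereas from E12.5 to E13.5 the reporter is the same.

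Sertoli cells are the first cells of the gonad to take a male fate. SRY switches on *Sox9*, SOX9 and FGF9 hold the fate in place, and the cells then polarize, build a basement membrane with their neighbours and send out the signals that remove the Müllerian ducts, attract vessels, direct Leydig cells and keep germ cells from entering meiosis. *Amh*, the hormone that removes the Müllerian ducts, is their best known product.

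*Amh* marked the sorted cells. Its log2 intensity was 9.74, 9.77 and 10.04 on the 3 arrays of E12.5 and 9.76, 9.73 and 9.95 on those of E13.5, against 5.92 ± 0.13 and 5.96 ± 0.16 (SD, n = 3) in XX supporting cells. The stages overlapped, with a log2 difference of -0.03 and a 95% interval from -0.37 to 0.30. Without E13.5 replicate 2 or E12.5 replicate 3 the sign turned (0.01 and 0.06). At E11.5, in cells sorted with the other reporter, it had been 6.24 ± 0.28. *Sox9* lay at 11.04 to 11.29 at E12.5 and 10.95 to 11.08 at E13.5 (interval of the log2 difference -0.51 to 0.27). Of 31 Sertoli cell genes on the array 30 reached the limit of 6, and the mean level of the 31 was 9.57 to 9.68 over the arrays of E12.5 and 9.61 to 9.68 over those of E13.5.

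Markers of other cells were at lower levels than in the cells they mark, where those were sorted. Of 14 macrophage genes 10 and of 16 endothelial genes 5 did not reach a log2 intensity of 6, and the mean of the endothelial list was 6.32 to 6.38 at E12.5 and 6.23 to 6.33 at E13.5, against 9.84 and 9.62 in endothelial cells. Of 18 germ cell genes 8 did not reach it, among them *Ddx4*, *Dazl* and *Pou5f1*. The mean of the germ cell list was 6.12 to 6.27 at E12.5 and 6.36 to 6.44 at E13.5, against 9.63 and 9.73 in XY germ cells. The mean of 9 fetal Leydig genes was 6.47 to 6.49 and then 6.90 to 7.14, against 7.53 and 8.76 in XY interstitial cells. The mean of 19 interstitial genes, of which 16 reached 6 at E12.5 and 17 at E13.5, was 6.84 to 6.97 and then 6.96 to 7.08, against 8.77 and 9.28 in XY interstitial cells. Of 8 red blood cell genes 7 reached 6, with a mean of 6.82 to 7.30 and then 6.72 to 6.82, and *Hbb-y*, an embryonic globin, lay at 8.99 to 10.77 and then 8.87 to 9.01. None of the measured endothelial, macrophage, red blood cell, mesonephric or Y-linked genes was called. The germ cell and fetal Leydig lists were somewhat higher on every array of E13.5 than on any of E12.5. In bulk samples a larger share of another cell type and more RNA per cell cannot be told apart.

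The arrays of E13.5 were closer to each other (mean correlation with their own group 0.9921 to 0.9932) than those of E12.5 (0.9869 to 0.9881). E12.5 replicate 1 correlated with the arrays of E13.5 (0.987) as well as with its own group (0.9869). Counts are therefore also given without it.

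From E12.5 to E13.5, 269 genes changed at an adjusted p under 0.05, 1.96% of the 13758. Of these 123 rose (0.894%) and 146 fell (1.06%), by limma over all 72 arrays of the 24 groups with Benjamini-Hochberg adjustment over all 16820 clusters. Most changes were modest: the median fold was 1.65 among genes that rose and 1.62 among those that fell, and 25 and 20 genes changed by more than 2-fold. The 3 arrays of a stage lay wholly above or below those of the other for 118 of the 123 and 141 of the 146, where 10.1% of all genes lay wholly higher and 8.31% wholly lower at E13.5. The study states other limits, a fold above 1.5 at an unadjusted p below 0.05. Applied to the limma fit used here, these gave 148 genes higher (1.08%) and 128 lower (0.93%), or 2.01% in all. Without E12.5 replicate 1, 100 rose and 166 fell. In each of the 6 fits that left out a single array, 51 of the genes that rose and 57 of those that fell were called.

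**Figure D1:**
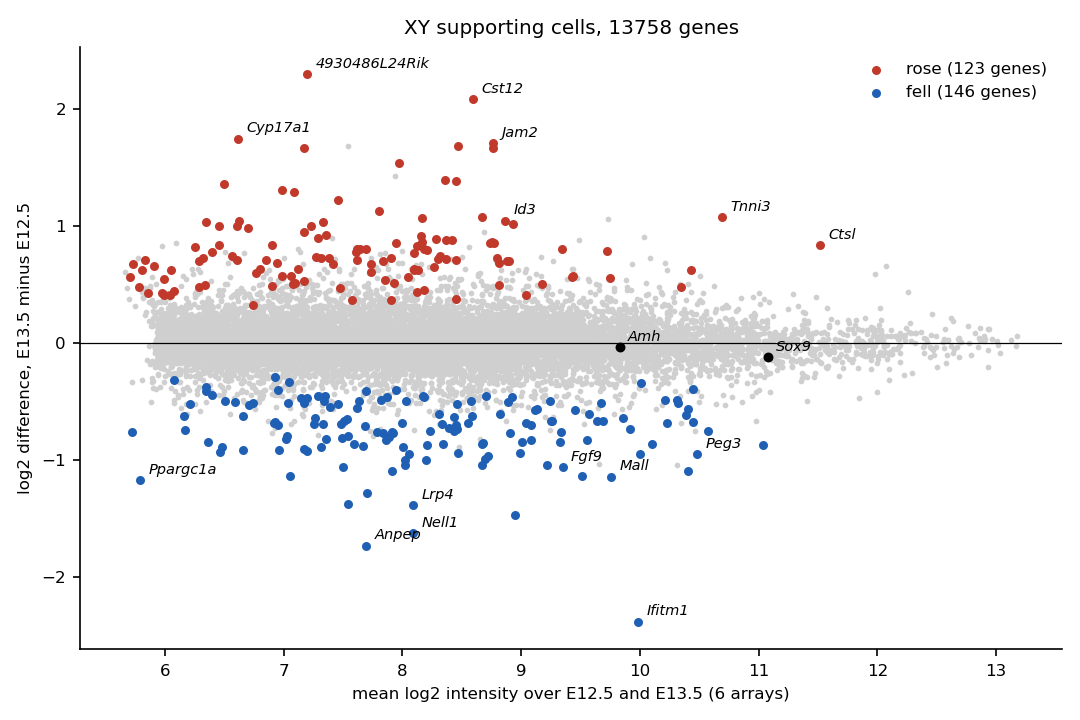
Log2 difference of each of 13758 genes between E13.5 and E12.5 in XY supporting cells (vertical) against its mean log2 intensity over the 6 arrays (horizontal), with genes that rose in red and genes that fell in blue at an adjusted p under 0.05. The 269 called genes spread over most of the range of intensity, while *Amh* and *Sox9* (black) lie near 0.

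Of the 12 largest rises, *Jam2*, *Ctnna2*, *Tubb3*, *Daam2* and *Smpx* encode proteins of cell contact or the cytoskeleton. *Jam2* encodes a junctional adhesion molecule of tight junctions. It was at 7.87, 7.92 and 7.92 at E12.5 and at 9.91, 9.29 and 9.65 at E13.5, a 3.28-fold rise (adjusted p = 8.1e-07). The E12.5 arrays were nearly equal, and every E13.5 array lay more than 1 log2 unit above them. *Ctnna2*, the alpha-catenin of neurons that ties cadherins to actin, rose 3.18-fold from 6.74, 6.30 and 5.98 to 8.18, 7.92 and 7.93 (adjusted p = 2.7e-13). *Tubb3*, a beta-tubulin best known from neurons, rose 3.18-fold from 7.98, 7.65 and 8.15 to 9.52, 9.51 and 9.76 (adjusted p = 6.1e-07). *Daam2*, a formin that links Wnt receptors to actin, rose from 7.60 to 7.74 up to 8.57 to 9.37 (2.64-fold). *Smpx*, a small protein of the muscle cell cytoskeleton, went from 7.18, 7.52 and 6.89 to 9.03, 8.55 and 8.63 (2.90-fold, adjusted p = 1.7e-05). Chosen after their values were seen, 2 further genes of the sarcomere rose, *Tnni3*, cardiac troponin I (2.11-fold, 9.95 to 10.38 and then 11.18 to 11.29), and *Mybpc3*, cardiac myosin-binding protein C (1.71-fold). *Tnnc1*, the troponin C of heart and slow muscle, fell 1.92-fold, with arrays that overlapped.

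The largest rise was that of *4930486L24Rik*, from 6.04, 6.19 and 5.93 to 8.24, 8.45 and 8.37 (4.92-fold, adjusted p = 2.7e-13, as for *Ctnna2*). At E12.5 it was near the lower limit, and at E13.5 its 3 arrays lay within a narrow range. *Cst12* encodes a cystatin, a family of secreted inhibitors of cysteine proteases. It stood at 7.55, 7.26 and 7.85 and then at 10.66, 9.25 and 9.02 (4.26-fold, adjusted p = 7.0e-04), so that the E13.5 arrays spread widely and replicate 1 was the highest. *Etd*, an X-linked gene of the testis, was at 7.37, 7.61 and 7.90 and then at 9.81, 8.99 and 9.15 (3.23-fold). *Pappa*, the protease that frees insulin-like growth factors from their binding proteins, rose from 7.83, 7.67 and 7.79 to 9.25, 8.80 and 9.40 (2.62-fold, adjusted p = 1.3e-11). *Slc26a7*, an anion transporter, rose 2.47-fold from 6.22 to 6.49 up to 7.32 to 7.87. With *Cyp17a1* and *Cyp11a1*, which follow below, these make up the 12 largest rises.

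The genes that fell most were *Ifitm1*, *Anpep* and *Nell1*. *Ifitm1*, an interferon-induced membrane protein known from germ cells and early embryos, was at 11.15, 11.10 and 11.27 at E12.5 and at 8.74, 9.02 and 8.63 at E13.5, a 5.19-fold fall (adjusted p = 1.9e-08). The stages were more than 2 log2 units apart on every array, and a second cluster of the gene fell by 1.68 on the log2 scale. *Anpep*, an aminopeptidase of the cell surface, fell 3.32-fold from 7.85, 8.94 and 8.90 to 6.61, 6.88 and 7.0 (adjusted p = 8.6e-05). *Nell1*, a secreted protein with EGF-like repeats, fell 3.06-fold from 9.08, 8.73 and 8.88 to 7.49, 7.38 and 6.97 (adjusted p = 1.5e-10). *Lrp4*, a receptor that modulates Wnt and agrin signals, fell 2.60-fold from 8.38, 8.92 and 9.03 to 7.30, 7.40 and 7.50. In *Anpep* and *Lrp4* E12.5 replicate 1 was the E12.5 array closest to those of E13.5.

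Further large falls were those of *Pnliprp2*, a lipase related to that of the pancreas (2.76-fold, 9.12 to 10.13 and then 7.77 to 8.63), *Dct*, dopachrome tautomerase of pigment cells (2.59-fold, 7.80 to 8.84 and then 6.62 to 7.03), and *Kcnk2*, a potassium channel (2.43-fold, 7.81 to 8.80 and then 6.86 to 7.21). *Mall*, a membrane raft protein, fell 2.21-fold from 10.21 to 10.43 down to 9.0 to 9.29, and *Pde9a*, which breaks down cyclic GMP, fell 2.19-fold from 7.44 to 7.77 down to 6.37 to 6.68. *Tgfbi*, an adhesion protein of the extracellular matrix, fell 2.13-fold from 10.60 to 11.27 down to 9.82 to 9.92. *Ppargc1a*, a coactivator of mitochondrial genes, fell 2.25-fold from 6.26 to 6.49 down to 5.14 to 5.29. Its levels at E13.5 lie under the limit of 6, where the signal of an array comes near its background and a fold loses precision, and a second cluster of the gene was not called (log2 difference -0.74). *Fosb*, an immediate early gene, completed the 12 (2.18-fold, 9.94 to 10.23 and then 8.56 to 9.31) at an adjusted p of 0.0497, a call lost on leaving out any array but E13.5 replicate 2.

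**Figure D2:**
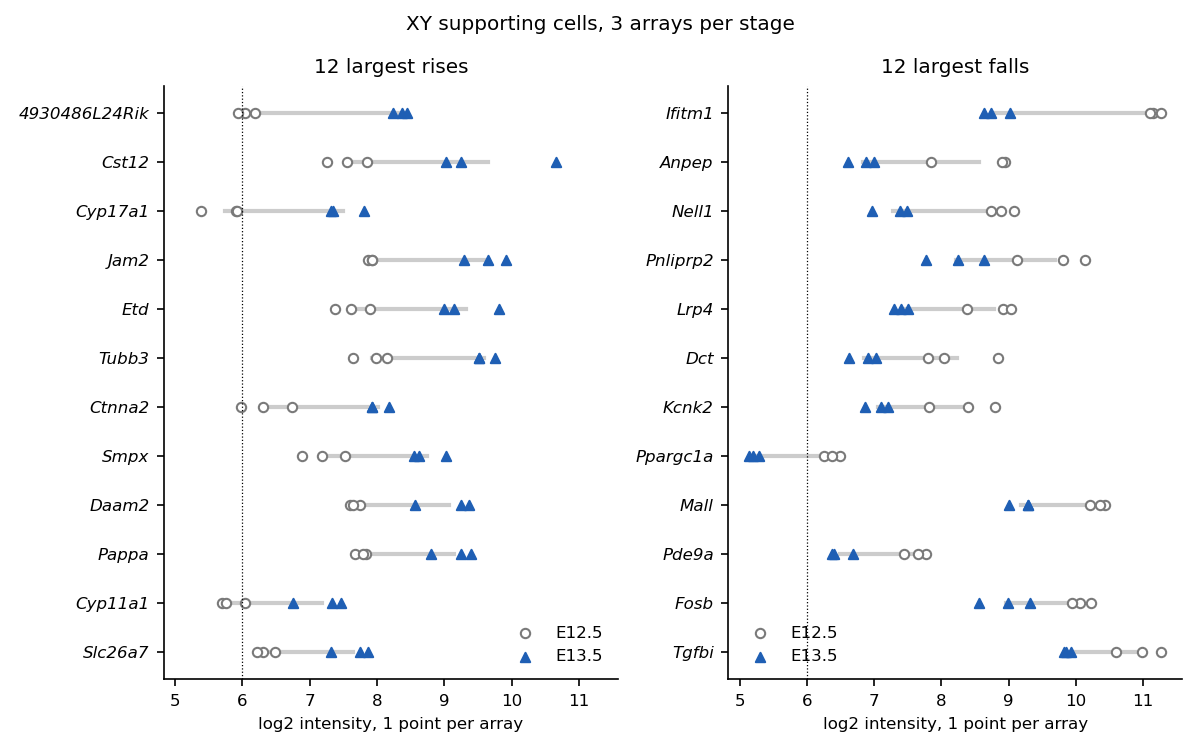
Log2 intensity (horizontal) on each array of XY supporting cells at E12.5 (open circles) and E13.5 (blue triangles) for the 12 genes with the largest rise and the 12 with the largest fall among those called without overlap. Grey bars join the means of 3 arrays, and the dotted line is the limit of 6, near which *Cyp17a1*, *Cyp11a1* and *4930486L24Rik* lay at E12.5.

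The genes of Sertoli cell identity moved in both directions. Of 30 measured, 2 rose and 3 fell, where 0.894% of all genes rose and 1.06% fell. At an unadjusted p under 0.05, 5 were higher and 7 lower. Of all 13758 genes 635 were higher and 649 lower at that limit, the share to set beside each list below. The log2 differences of the 30 ran from -1.06 to 0.84 with a median of -0.09, against 0.00 over all genes. *Sox8*, a relative of *Sox9* that shares its role, rose 1.57-fold from 8.05, 7.93 and 7.85 to 8.63, 8.94 and 8.21 (adjusted p = 0.00263). *Ctsl*, the lysosomal protease cathepsin L, rose 1.79-fold from 10.93, 11.13 and 11.25 to 11.82, 11.99 and 12.02. *Fgf9*, the growth factor that keeps *Sox9* active, fell 2.08-fold from 9.92, 10.24 and 9.48 to 9.07, 8.67 and 8.73 (adjusted p = 1.5e-04). *Cyp26b1*, which degrades retinoic acid and so shields germ cells from meiosis, fell 1.62-fold from 8.22, 8.91 and 8.91 to 8.04, 7.82 and 8.10. *Nr5a1*, the nuclear receptor needed for the gonad and its steroid enzymes, fell 1.42-fold from 9.04, 9.28 and 9.10 to 8.64, 8.67 and 8.60 (adjusted p = 0.0094). None of these 5 overlapped between the stages. Of the 30, 10 had all E13.5 arrays above all E12.5 arrays and 8 had all below, against 10.1% and 8.31% of all genes. Examples of uncalled genes whose stages did not overlap are *Cst9*, *Defb19*, *Clu* and *Erbb4*, which were higher, and *Cbln4* and *Dhh*, which were lower. The uncalled genes that passed the unadjusted p under 0.05 were *Clu*, *Erbb4* and *Ptgds* (higher) and *Cbln4*, *Dhh*, *Gdnf* and *Trf* (lower).

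After the fall *Fgf9* and *Nr5a1* still had higher means at E13.5 than XX supporting cells, a difference that was not tested: *Fgf9* stood at 8.82 ± 0.21 against 6.91 ± 0.17 (SD, n = 3) and *Nr5a1* at 8.64 ± 0.03 against 8.28 ± 0.18. Other genes of the list that are central to Sertoli cells were not called. *Dhh*, the hedgehog ligand for the interstitium, had a log2 difference of -0.27 (7.84 to 8.09 and then 7.61 to 7.77, interval -0.51 to -0.03, adjusted p = 0.496), *Dmrt1*, which guards the male fate later, -0.24 (interval -0.51 to 0.04) and *Ptgds*, prostaglandin D synthase, 0.36 (interval 0.04 to 0.68, adjusted p = 0.468). *Sry* was at 8.35 to 8.78 at E12.5 and 7.86 to 7.98 at E13.5. XX supporting cells, which lack the gene, gave 8.00 and 7.92 for the same cluster, so at E13.5 *Sry* was not told from the level in those cells. They carry *Sry-EGFP*, which by the paper lacks the SRY reading frame, and the part of the transgene in their signal was not tested. None of 15 pre-granulosa genes was called (median -0.10). At an unadjusted p under 0.05 *Sp5* was higher (6.58 to 6.69 and then 6.97 to 7.04) and *Runx1* lower (7.46 to 7.72 and then 7.05 to 7.08), both without overlap.

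Most lists of signalling genes held 1 call or none, and that of ligands held 2. *Edn1*, the peptide endothelin that acts on vessels, rose 2.44-fold from 6.27, 6.67 and 6.40 to 7.85, 7.79 and 7.56 (adjusted p = 1.7e-04). *Pdgfc*, a ligand of the PDGF receptor alpha of the interstitium, rose 1.74-fold from 7.30, 8.07 and 8.05 to 8.69, 8.56 and 8.58 (adjusted p = 0.0432). These were the 2 that rose of 13 measured ligands for vessels and germ cells, of which none fell, against 0.894% of all genes that rose. *Hey1*, a target of Notch, fell 1.94-fold from 8.35, 8.65 and 8.59 to 7.46, 7.59 and 7.67 (adjusted p = 2.8e-04), the only call among 13 Notch genes. Of 17 FGF and MAPK feedback genes only *Fgf9* itself was called, with *Dusp4*, *Etv5* (9.09 to 9.19 and then 8.65 to 9.01) and *Il17rd* (7.90 to 8.10 and then 7.51 to 7.68), feedback genes of this pathway, lower and *Fgf13* higher at an unadjusted p under 0.05. Of 14 retinoic acid genes only *Cyp26b1* was called, with *Dhrs3* lower and *Stra6* and *Rdh10* higher at an unadjusted p under 0.05. None of 6 androgen, oestrogen and FSH genes was called (median 0.21). None was called among 13 hedgehog genes (median -0.04; 2 lower at an unadjusted p under 0.05, *Dhh* and *Boc*) or among 25 Wnt genes (median 0.00; 1 in each direction at an unadjusted p under 0.05).

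In the list of AMH, activin, inhibin and BMP genes 3 of 30 rose (0.894% of all genes did) and none fell, with a median of 0.09. *Id3*, a helix-loop-helix inhibitor induced by BMP signals, rose 2.07-fold from 8.25, 8.45 and 8.34 to 9.22, 9.64 and 9.32 (adjusted p = 0.00286). *Tgfb3*, a ligand of the TGF-beta family, rose 1.60-fold from 7.06 to 7.10 up to 7.58 to 7.86 (adjusted p = 0.027). *Inhba*, the activin A subunit, rose 1.64-fold from 6.12 to 6.36 up to 6.73 to 7.21 at an adjusted p of 0.0487, a call lost on leaving out any array but E13.5 replicate 3. *Inhba* is also the only call of the 17 interstitial genes, and XY interstitial cells held it at 10.12 ± 0.18 (SD, n = 3) at E13.5. Of the same list *Id1*, *Id2*, *Smad6* and *Smad7*, all known targets of BMP signals, were higher at an unadjusted p under 0.05 only, *Id1* at 7.40 to 7.83 and then 8.22 to 8.40 and *Id2* at 7.19 to 7.66 and then 8.15 to 8.22. *Bmp7*, a BMP ligand, was lower at that limit (8.44 to 8.76 and then 8.08 to 8.35).

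Genes of the matrix and of junctions moved in both directions, and the 3 genes called on a list of proteases and their inhibitors rose. *Lama1*, the laminin chain of early basement membranes, rose 1.65-fold from 7.89 to 8.01 up to 8.59 to 8.77 (adjusted p = 6.9e-04), while *Col18a1*, a collagen of basement membranes and source of endostatin, fell 1.78-fold from 9.74 to 10.24 down to 9.12 to 9.16 (adjusted p = 0.00162). The other 22 of 24 basement membrane genes were not called. Among 18 junction genes *Jam2* rose and *Ctnna1*, the alpha-catenin of epithelia, fell 1.39-fold (10.28 to 10.64 and then 9.93 to 10.05), so the 2 alpha-catenins in the data moved in opposite directions. Of 20 proteases and inhibitors *Cst12*, *Ctsl* and *Timp3*, an inhibitor of metalloproteinases bound to the matrix (1.73-fold, 9.17 to 9.54 and then 10.09 to 10.14), rose and none fell, against 0.894% and 1.06% of all genes. *Mmp2* and *Adamts9* of this list were lower at an unadjusted p under 0.05 only. Outside the list protease genes moved in both directions: *Anpep*, *Prss12* and *Pcsk6* are among those that fell, while *Pappa* rose.

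**Figure D3:**
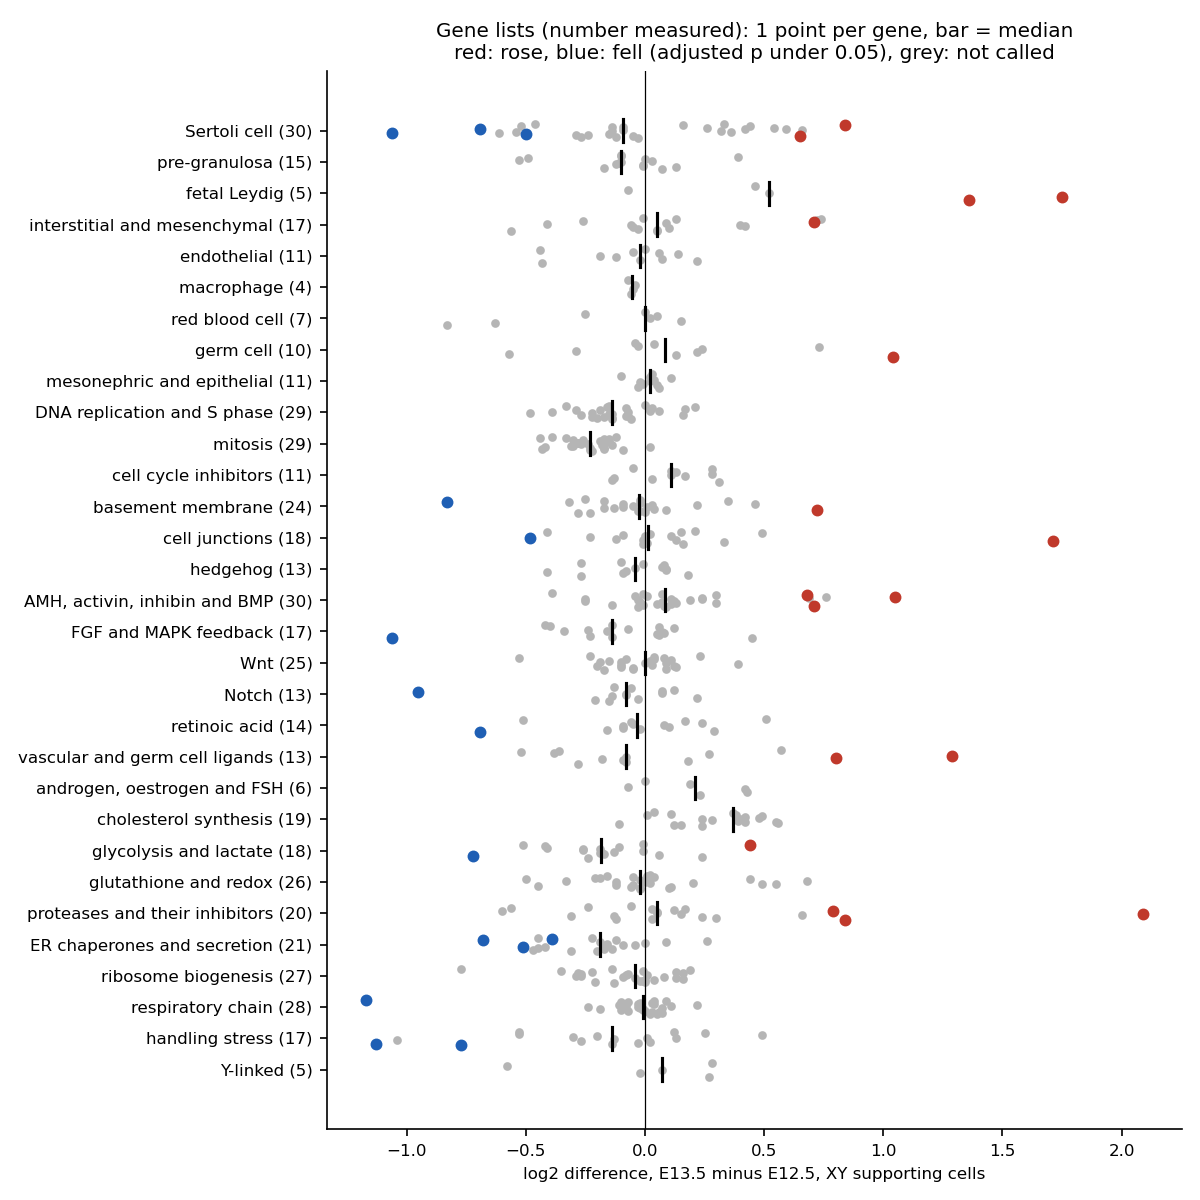
Log2 difference between E13.5 and E12.5 in XY supporting cells (horizontal) for each measured gene of 31 lists, drawn up with earlier results of these data known, with black bars at the list medians, red for genes that rose and blue for genes that fell. Cholesterol synthesis genes lie mostly to the right (median 0.37), and mitosis genes (-0.23) and endoplasmic reticulum chaperones (-0.19) mostly to the left, while most other medians are near 0.

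Most genes of the endoplasmic reticulum that fold and modify secreted proteins had a lower mean at E13.5. Of 21, 3 fell (1.06% of all genes did) and none rose, 18 had a difference below 0 (85.7%, against 48.7% of all genes), and the median was -0.19. In XX supporting cells the median of the list was 0.03 and in XY interstitial cells 0.00. *Sdf2l1*, a chaperone cofactor, fell 1.60-fold from 8.63, 9.26 and 8.79 to 8.04, 8.34 and 8.26 (adjusted p = 0.00494). *P4hb*, protein disulfide isomerase, fell 1.42-fold from 10.39, 10.62 and 10.71 to 10.14, 10.01 and 10.05 (adjusted p = 0.00914). *Manf*, a secreted factor of the stress response of this compartment, fell 1.31-fold from 10.55, 10.78 and 10.61 to 10.26, 10.34 and 10.16 (adjusted p = 0.0199). For 13 of the 21 the arrays of E13.5 lay wholly below those of E12.5, against 8.31% of all genes. Beyond the 3 called, 8 more genes were lower at an unadjusted p under 0.05, with *Hspa5*, the master chaperone BiP, at 12.07 to 12.35 and then 11.86 to 12.00. Outside the list, and chosen after their values were seen, *Hyou1*, a large chaperone of the same compartment (1.58-fold, 9.20 to 9.85 and then 8.72 to 9.16), and *Eif2ak3*, the stress sensor PERK (1.63-fold, 7.74 to 8.28 and then 7.12 to 7.45), fell as well. *Sdf2l1*, *P4hb* and *Manf* each lost the call without E12.5 replicate 2, without 1 or more of the other arrays, and when only the 6 arrays were fitted.

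Several chaperone genes share a promoter element known for its role in protein folding stress, the ER stress element, spelled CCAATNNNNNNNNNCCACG. It was searched for on both strands in RefSeq promoters of GRCm38.p6, from 250 bases before to 50 bases after a transcript start, which were found for 10918 of the 13758 genes. It occurred in 19 of these genes (0.174%), and in 6 of the 18 chaperone genes with a promoter (33.3%), *Calr*, *Canx*, *Creld2*, *Hsp90b1*, *Hspa5* and *Pdia6*. All 6 are among the 8 that were lower at an unadjusted p only. *P4hb* and *Sdf2l1* did not hold these exact letters in the window, nor did any of the 117 genes that fell and have a promoter here. The sites are shown along the strand of the gene with 5 bases before and 6 after, and the capitals mark the 5 bases at each end of the element, which are reversed and complemented where it lies on the opposite strand.
*Hspa5* (chr2:34772020-34772049, + strand): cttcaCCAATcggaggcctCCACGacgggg
*Pdia6* (chr12:17266486-17266515, + strand): agagaCCAATgaaaggcggCCACGgcgtgg
*Canx* (chr11:50325794-50325823, - strand): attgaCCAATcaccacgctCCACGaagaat
*Hsp90b1* (chr10:86705632-86705661, - strand): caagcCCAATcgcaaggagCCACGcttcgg
*Hsp90b1*, second site (chr10:86705527-86705556, - strand): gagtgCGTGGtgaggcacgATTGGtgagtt
*Calr* (chr8:84847069-84847098, - strand): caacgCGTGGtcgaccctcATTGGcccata
*Creld2* (chr15:88819515-88819544, + strand): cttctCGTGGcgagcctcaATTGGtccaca

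Motifs of factors of the supporting lineage were counted in the same promoters. AAGGTCA, the core bound by NR5A1, was found in 5 of 96 genes that rose (5.21%) and 7 of 117 that fell (5.98%), against 4.03% of the 10918. AACAAT, a core of SOX sites, was found in 8 genes that rose (8.33%) and 7 that fell (5.98%), where the share over all genes with a promoter was 7.10%. For factors of the GATA family the letters searched were TGATAA, found in 8 genes that rose (8.33%) and 10 that fell (8.55%), against 5.25%. All were searched on both strands in the same window.

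Of the 31 lists, those of fetal Leydig and of cholesterol synthesis genes had the highest medians (0.52 and 0.37). Of 9 fetal Leydig genes on the array 3 reached the limit of 6 at E12.5 and 5 at E13.5. *Cyp17a1* and *Cyp11a1* passed at E13.5 alone, so the median of the Leydig list follows in part from the limit. *Cyp17a1* encodes the enzyme that turns progestins into androgens, and *Cyp11a1* the one that cuts the side chain of cholesterol. *Cyp17a1* was at 5.91, 5.39 and 5.92 at E12.5 and at 7.31, 7.34 and 7.81 at E13.5 (3.35-fold, adjusted p = 3.3e-07). *Cyp11a1* was at 5.70, 5.75 and 6.03 and then at 6.75, 7.33 and 7.47 (2.56-fold, adjusted p = 7.0e-04). All E13.5 arrays lay above all E12.5 arrays, and since the levels of E12.5 are near the limit of 6 the folds rest on a lower level that the array measures poorly. *Cyp11a1* had been at 6.87 to 7.19 in XY supporting cells of E11.5, near its level of E13.5. In XY interstitial cells *Cyp17a1* rose from 8.28 ± 1.16 to 10.89 ± 0.18 and *Cyp11a1* from 7.72 ± 0.98 to 10.53 ± 0.48 (SD, n = 3), more than 3 log2 units above the supporting cells at E13.5.

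These 2 were the calls among 5 measured fetal Leydig genes. *Star*, which carries cholesterol into mitochondria (7.18 to 7.43 and then 7.63 to 7.94), and *Fdx1*, the electron donor of CYP11A1 (9.65 to 9.68 and then 10.07 to 10.21), were higher at an unadjusted p under 0.05, and *Scarb1*, a receptor for lipoproteins, was not (log2 difference -0.07). *Hsd3b1*, the enzyme between the 2, stayed near the limit (5.55 to 5.67 and then 5.99 to 6.26), where XY interstitial cells had 8.38. *Hsd17b3*, which makes testosterone in fetal Sertoli cells, was at 10.97 to 11.14 and then 11.47 to 11.54 (log2 difference 0.42, adjusted p = 0.904). The error behind this p is shared by all groups, and the XY interstitial arrays of E13.5 ran from 8.25 to 10.71. The part of interstitial cells in these levels was not tested. Of all 123 genes that rose, 9 were over 2-fold higher in XY interstitial than in XY supporting cells at E13.5 (7.32%, against 3.21% of all genes), among them *Cyp17a1*, *Cyp11a1*, *Inhba*, *Igf1* and *Vsnl1*. At E12.5, before the rise, it was 12 of the 123 (9.76%, against 2.46%). Of the 146 genes that fell, 3 were over 2-fold higher in interstitial cells at the earlier stage (2.05%) and 16 at the later (11%). The supporting level used for these shares is also the one by which the genes were called. Their shift between the stages therefore follows in part from the choice of genes.

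Of 19 genes of cholesterol synthesis none was called by limma, but 18 had a difference above 0, as did 7053 of all 13758 genes. The median was 0.37, and 11 had all E13.5 arrays above all E12.5 arrays, against 10.1% of all genes. At an unadjusted p under 0.05, 7 were higher, such as *Idi1*, an isomerase of the isoprenoid step (6.83 to 7.19 and then 7.45 to 7.78), *Sqle*, squalene epoxidase (8.36 to 8.89 and then 8.96 to 9.14), and *Insig1*, which holds back the sterol sensor (8.15 to 8.31 and then 8.42 to 8.73). In XX supporting cells the median of the same 19 was 0.04 and in XY interstitial cells 0.91.

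Genes of proliferation had medians below 0 and no calls. Of 29 genes of mitosis none was called, while 28 had a difference below 0, against 48.7% of all genes. Their median was -0.23 and their range from -0.44 to 0.02. At an unadjusted p under 0.05, 5 were lower (*Cdc20*, *Plk1*, *Top2a*, *Anln* and *Cdc25c*). In XX supporting cells the median of these 29 was -0.12 and in XY interstitial cells -0.05. Of 29 genes of DNA replication none was called and 3 were lower at an unadjusted p (median -0.14, with -0.11 in XX supporting cells). *Mki67*, the proliferation antigen, was at 9.40 to 9.67 and then 9.30 to 9.56, with stages that overlapped. None of 11 cell cycle inhibitors was called, nor did any have an unadjusted p under 0.05 (median 0.11).

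Energy metabolism gave isolated changes. *Hk1*, the hexokinase that starts glycolysis, fell 1.64-fold from 8.59 to 8.83 down to 7.80 to 8.30 (adjusted p = 4.1e-04), and *Slc16a3*, an exporter of lactate, rose 1.36-fold from 7.80 to 8.02 up to 8.20 to 8.47 (adjusted p = 0.0298). Of 18 genes of glycolysis and lactate 15 had a difference below 0, against 48.7% of all genes (median -0.18, -0.11 in XX supporting cells). Of 28 genes of the respiratory chain and its regulators only *Ppargc1a* was called, and the list stayed at a median of -0.01. None of 26 glutathione genes and none of 27 ribosome biogenesis genes was called (medians -0.02 and -0.04).

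*Fos* and *Fosb*, which respond within minutes to stress of the cells, were the 2 of 17 genes on a list of handling stress that changed. *Fos* fell 1.71-fold from 8.09, 8.36 and 8.22 to 7.59, 7.44 and 7.32 (adjusted p = 0.0266). The mean of the list was 8.63 to 8.87 on the arrays of E12.5 and 8.46 to 8.60 on those of E13.5, and in XX supporting cells the median log2 difference of the list was 0.34 where it was -0.14 here. *Egr2* (10.29 to 11.15 and then 9.33 to 10.13) and *Nr4a1* (9.31 to 9.85 and then 8.84 to 9.21), of the same kind, were lower without overlap at an unadjusted p under 0.05, while *Egr1* and *Jun* overlapped between the stages. The part of cell handling in these values was not tested. *Dppa3*, a germ cell gene that protects methylation, was the single germ cell gene that rose (2.05-fold, from 6.36, 7.05 and 7.04 to 7.90, 7.88 and 7.77, adjusted p = 0.00755). In XY germ cells it was at 11.51 and 11.58. *Ddx4* was at 5.30 to 5.53 and then 5.88 to 5.99, and *Dazl* at 5.02 to 5.37 and then 5.63 to 5.73, all under the limit. The part of germ cell RNA in the rise of *Dppa3* was not tested.

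**Figure D4:**
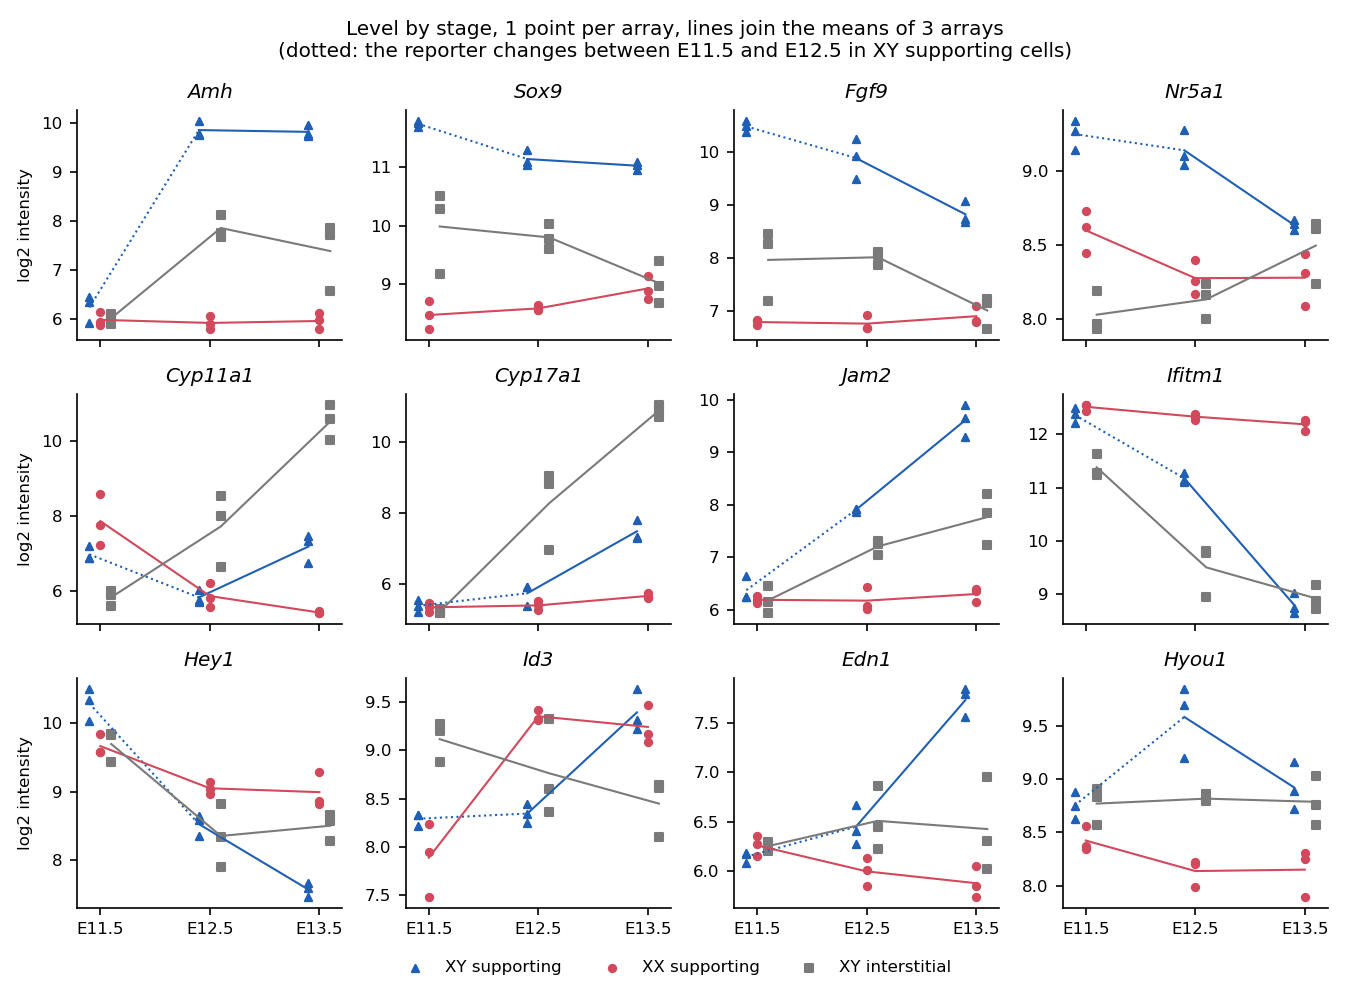
Log2 intensity on each array (vertical) by stage (horizontal) in XY supporting cells (blue triangles), XX supporting cells (red circles) and XY interstitial cells (grey squares) for 12 genes, with lines through the means of 3 arrays and the change of reporter in XY supporting cells dotted. *Amh* is level from E12.5 to E13.5, *Ifitm1* and *Hey1* are lower at each later stage in XY supporting cells, and *Cyp11a1* and *Cyp17a1* lie far lower in supporting than in interstitial cells at E13.5.

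The step from E12.5 to E13.5 in XY supporting cells was then set against the same step in XX supporting cells, which are on the way to pre-granulosa cells. The difference of the 2 steps passed an adjusted p under 0.05 for 144 genes (1.05%), with the XY step higher for 59 (0.429%) and lower for 85 (0.618%). Among the genes called within XY cells it passed for 38 of the 123 that rose and 57 of the 146 that fell. The XY step that called these genes is part of the difference, so these counts follow in part from their choice. In XX cells 192 genes (1.40%) changed over the same day, 113 rising (0.821%) and 79 falling (0.574%). There the median log2 difference of the genes that rose in XY cells was 0.05 and of those that fell 0.00. Without XY E12.5 replicate 2 the count of 144 dropped to 95.

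Some genes moved alike in both sexes. *Cst12* rose 4.26-fold in XY cells and 3.75-fold in XX cells, from 6.58 ± 1.05 to 8.49 ± 0.67 (SD, n = 3), and *Timp3* rose 1.73-fold and 1.78-fold. With these, *Pla2r1*, *Vsnl1* and *Best1* also rose in both. *Pnliprp2* fell in both, 2.76-fold in XY and 6.18-fold in XX cells (9.40 ± 0.90 to 6.77 ± 0.02), as did *Pglyrp1*, *6030498E09Rik* and *Maoa*. Opposite calls were made for 7 genes. *Igf1*, insulin-like growth factor 1, rose in XY cells from 5.47, 6.27 and 6.07 to 6.82, 6.71 and 6.37 (1.62-fold, adjusted p = 0.02) and fell in XX cells from 9.35 ± 0.12 to 8.71 ± 0.20 (adjusted p = 0.049), and *Tnnt1*, troponin T of slow muscle, rose and fell likewise. *Papss2*, *Slc41a2*, *Pcsk6*, *Lratd1* and *Cdc42ep5* fell in XY and rose in XX cells.

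The largest differences between the sexes came from several courses. *Igfbp3*, a carrier of insulin-like growth factors, had the highest (log2 difference of steps 2.21, adjusted p = 8.0e-05): in XX cells it fell from 9.09 ± 0.04 to 7.58 ± 0.59, while in XY cells it was at 8.42, 8.48 and 8.42 and then 9.39, 9.17 and 8.87, which was not called by itself (adjusted p = 0.233). *4930486L24Rik* followed with 2.14, since its XX level stayed at 5.41 ± 0.14 and 5.57 ± 0.10. *Cyp11a1* (1.80), *Map7d3*, of a family that binds microtubules (1.79, with a 2.10-fold rise in XY cells), and *Etd* (1.77) were next. At the other end *Ifitm1* had -2.23, as XX cells kept it at 12.33 ± 0.05 and 12.19 ± 0.12 while it fell in XY cells. *Anpep* had -1.90, with an XX level of 10.44 ± 0.20 and 10.60 ± 0.32. *Gem*, a small GTPase (-1.71), *Nell1* (-1.70) and *Dipk1a*, a kinase-like protein (-1.65), followed. *Gem* and *Dipk1a* were not called in XY cells, and *Dipk1a* rose 2.38-fold in XX cells.

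**Figure D5:**
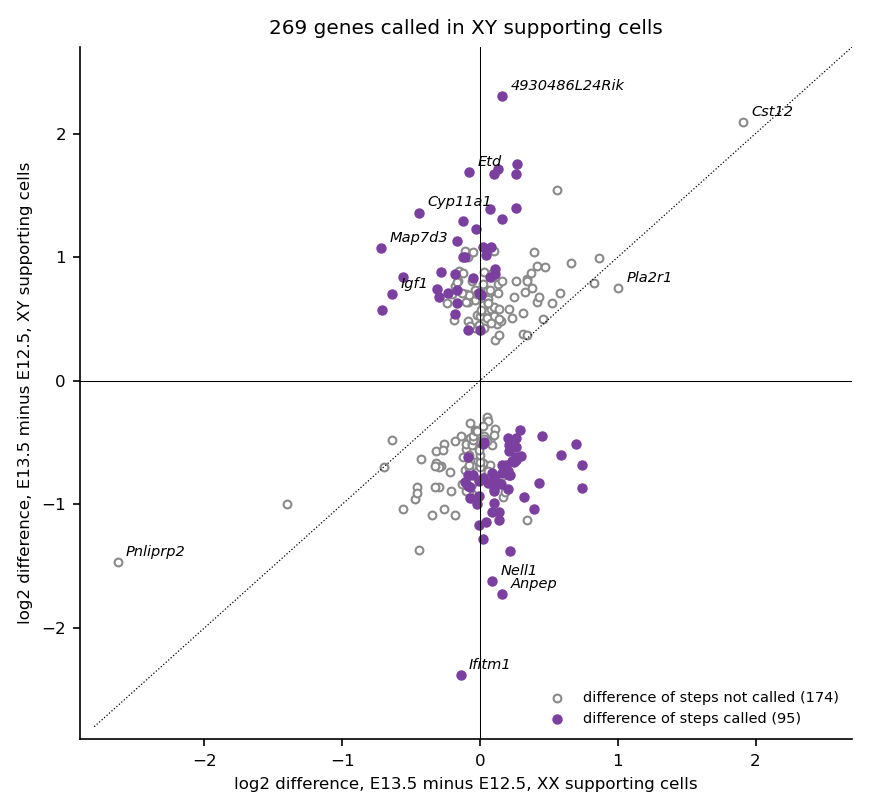
Log2 difference between E13.5 and E12.5 in XY supporting cells (vertical) against that in XX supporting cells (horizontal) for the 269 genes called in XY cells, with purple for the 95 genes whose steps differ at an adjusted p under 0.05 and a dotted line where the steps are equal. Most genes lie near 0 on the XX axis, and *Cst12*, *Pla2r1* and *Pnliprp2* are among the few that moved the same way in both.

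Against the step of XY interstitial cells 116 genes differed (0.843%), 40 with a higher (0.291%) and 76 with a lower (0.552%) step in supporting cells. In interstitial cells themselves 164 genes changed (1.19%), 114 rising (0.829%) and 50 falling (0.363%). Among the genes called in supporting cells the difference passed for 28 that rose and 32 that fell, while 9 and 13 were also called in interstitial cells in the same direction. Here too the step that called the genes is part of the difference. *Nr5a1* was lower by 0.86 in the difference of steps (adjusted p = 0.00226), since in interstitial cells it went from 8.14 ± 0.12 to 8.50 ± 0.22 (SD, n = 3). *Hey1* was lower by 1.10 (adjusted p = 0.00984), and *Id3* (1.36) and *Pdgfc* (1.48, adjusted p = 0.00639) were higher, as both had a lower mean at E13.5 in interstitial cells. For *Cyp11a1* the difference was -1.45 (adjusted p = 0.0401) and for *Cyp17a1* -0.87 (adjusted p = 0.326), both with a larger step in interstitial cells, of which the latter did not pass the test. *Fgf9* had nearly the same step in both (difference -0.05), going from 8.02 ± 0.12 to 7.01 ± 0.31 in interstitial cells. The paper reports a varying share of supporting cells in its XY interstitial sorts of E13.5. On the interstitial arrays *Amh* lay at 7.68 to 8.13 and then 6.58 to 7.86, and the median of 30 Sertoli cell genes was -0.3. The part of supporting cells in the interstitial step of *Fgf9* was not tested. The count of 116 rests on single arrays of the interstitial cells, with 39 genes without XY interstitial E13.5 replicate 2 and 186 without replicate 1.

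The genes that fell stood at a median log2 intensity of 8.49 at E12.5 and 7.61 at E13.5, and those that rose at 7.24 and 8.07, where all 13758 genes had 7.68 and 7.70. Of the genes that rose 8 lie on the X chromosome (6.5%) and of those that fell 6 (4.11%), against 3.11% of all genes. Of 18 called genes with several clusters, 14 had all of them in 1 direction. The earlier step shares the E12.5 arrays and changes the reporter, so only levels are set side by side: *Ifitm1* was at 12.37, *Hey1* at 10.29 and *Peg3*, an imprinted zinc finger gene that fell 1.93-fold here, at 12.66 at E11.5, all above E12.5, while *Nell1* was at 6.97 and *Mall* at 9.05, both below it. *Jam2* (6.37), *Tubb3* (6.11) and *Smpx* (5.36) were lower at E11.5 than at either later stage.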

How the data were processed

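RNA was amplified from sorted cells and hybridized to arrays that were read with GCOS (per the labels). The authors applied RMA in Partek with adjustment for probe GC content and sequence, quantile normalization and median polish, and the deposited values are log2 intensities of 91 arrays over 35557 transcript clusters. Whether this table comes from all arrays or from 72 normalized together is not given in the sources used here. The values were not normalized again. An annotation was at hand for 23410 clusters. The 21789 that point to a single gene were used, and 1621 with several genes and 12147 without an entry were left out. Coordinates of that annotation were not used, since it gives no build. The authors' filter on cross-hybridizing clusters could not be repeated. The reporter of the interstitial cells is not reported here. No 2 arrays were identical (highest correlation 0.9952). The number of arrays, 3 per group, limits the precision.

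Here, groups were compared with limma 3.58.1 under R 4.3.3 in a model with a mean for each of 24 groups, 72 arrays in all (48 residual degrees of freedom), so that the spread within all groups sets each error. A gene with several clusters was represented by that with the smallest p. Adjusted p-values are limma's after Benjamini-Hochberg adjustment over 16820 clusters. The fits were tested on simulated data. The genes and the 31 lists were chosen with earlier results of these data known. Genes named are the 12 largest rises and falls called without overlap, up to 6 called genes per list, the 5 largest differences between XY and XX steps in each direction, and fixed Sertoli cell genes and markers. Others are named as examples or as chosen after their values were seen. Alternatives were other sets of arrays in the fit, 90 arrays, renewed quantile normalization, centring, a limit of 7 or none, adjustment over the 15083 included clusters alone, an intensity trend, array weights, a replicate block and leaving out each array.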

Additional observations from a re-analysis of the deposited data

Results flagged for a closer look

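For 27 genes named above, the change from E12.5 to E13.5 in XY supporting cells differed from that in XX supporting cells at an adjusted p under 0.05 (limma, test of the difference itself). The log2 difference of the changes was above 0 for *Igfbp3* (2.21), *4930486L24Rik* (2.14), *Cyp11a1* (1.80), *Map7d3* (1.79), *Etd* (1.77), *Jam2* (1.59), *Ctnna2* (1.57), *Cyp17a1* (1.48), *Tubb3* (1.41), *Edn1* (1.40), *Pappa* (1.32), *Slc26a7* (1.15), *Daam2* (1.14) and *Tgfb3* (0.97). It was below 0 for *Ifitm1* (-2.23), *Anpep* (-1.90), *Gem* (-1.71), *Nell1* (-1.70), *Dipk1a* (-1.65), *Lrp4* (-1.60), *Kcnk2* (-1.30), *Pde9a* (-1.28), *Fgf9* (-1.20), *Mall* (-1.18), *Ppargc1a* (-1.16), *Col18a1* (-0.89) and *Sdf2l1* (-0.84).

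For 22 genes the change in XY supporting cells differed from that in XY interstitial cells by the same test. This count too follows in part from the choice of genes. The difference was above 0 for *Cst12* (2.42), *Etd* (1.74), *4930486L24Rik* (1.59), *Pdgfc* (1.48), *Ctnna2* (1.47), *Daam2* (1.43), *Smpx* (1.40), *Edn1* (1.37), *Id3* (1.36), *Pappa* (0.91), *Ptgds* (0.88) and *Sox8* (0.81). It was below 0 for *Anpep* (-1.80), *Ifitm1* (-1.79), *Cyp11a1* (-1.45), *Hey1* (-1.10), *Lrp4* (-0.99), *Pde9a* (-0.97), *Nell1* (-0.95), *Kcnk2* (-0.90), *Nr5a1* (-0.86) and *Cyp26b1* (-0.76). XX supporting and XY interstitial cells carried other reporters than XY supporting cells, and both comparisons use the same 6 arrays of the latter. The interstitial arrays also held signal of Sertoli cell genes, with a median of -0.3 for their list. The differences of *Ptgds* and *Sox8* therefore include the change on those arrays.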

How the results depend on the processing

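The count of 269 genes was 186 to 315 under all alternatives with every array kept except array weights, which gave 572 (268 rose, 304 fell). The 186 came from the 6 arrays compared alone, and 127 of them were among the 269. With the 18 arrays of supporting cells the count was 198, and 163 of these were among the 269. On leaving out 1 array it was 168 (without E13.5 replicate 1) to 266 (without E12.5 replicate 1), and 205 of those 266 were among the 269. Without E12.5 replicate 2 it was 181, without E12.5 replicate 3 186 and without E13.5 replicate 3 187. The 144 genes that differed from the XX step became 77 with 18 arrays in the fit and 323 with array weights, and 95 to 169 on leaving out 1 array. Of the 77, 58 were among the 144. The 116 that differed from the interstitial step became 26 with the 12 arrays compared alone and 291 with array weights. Of the 26, 15 were among the 116. On leaving out 1 array the count was 39 to 186. It was 68 without XY supporting E13.5 replicate 1, 73 without XY supporting E12.5 replicate 2 and 74 without XY interstitial E13.5 replicate 3. The causes of these moves were not tested. The difference of *Amh* was -0.10 to 0.06 on leaving out 1 array, above 0 without E13.5 replicate 2 (0.01) and without E12.5 replicate 3 (0.06).

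Of 56 genes named by rule 47 were called. None of these lost the call with 90 arrays, a limit of 7, an intensity trend or adjustment over the 15083 included clusters alone. Of the same genes 2 lost it on centring, 3 on renewed quantile normalization, 3 without a filter, 5 with 18 arrays and 10 with 6 arrays. Leaving out 1 array cost 7 to 10 their call. Low signal limits the genes near 6. With the replicate number as a block the counts were 282, 145 and 128, and 267 of the 282 were among the 269. The deviations of same-numbered arrays of the 2 stages correlated at 0.074, 0.069 and 0.055, so the numbers were not taken as pairs, although each array correlated best with its own number.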
